A study of Mus musculus with 6 samples.

Results

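The 420 loci described here are short intergenic long noncoding RNAs (lncRNAs) that were listed at a level of at least 1 and under 5 FPKM in female germline stem cells (FGSCs) and under 0.1 FPKM in spermatogonial stem cells (SSCs). FPKM is a level of fragments set relative to transcript length and library size. They were chosen from 18573 newly assembled lncRNA transcripts. To belong, a transcript had to lie between annotated genes, be the only transcript of its gene, share its exact locus with fewer than 3 other rows, lie on an autosome and span under 20000 bp, and 12381 transcripts met these conditions at any level. The 420 are 3.39% of these 12381 transcripts, which are called short intergenic loci below. Since the levels themselves chose the 420, their levels are given as a description. The same rule with the cell types exchanged gave 477 loci confined to SSCs, which are set beside them.

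FGSCs were taken from ovaries of mice that the sample labels give as C57BL/6 and 6 days old, and SSCs from testes of C57BL/6 mice labelled as 3 to 5 days old. The study's methods give these ages the other way round. In both cell types the donors are described as Ddx4-Cre; mT/mG mice, in which a Cre recombinase under the promoter of the germ cell gene Ddx4 turns on GFP, and the GFP-positive cells were sorted and then selected on laminin. The methods name the Ddx4-Cre parent as an FVB line, which differs from the C57BL/6 of the labels. The cells came from pooled animals. Each cell type was sequenced as 3 libraries, but the lncRNA table holds 1 FPKM value per transcript and cell type, so the spread between libraries could not be computed from these levels and no test was run here. The comparison columns of the authors in that table were not used. The table held no marker genes, so the label of the cells was not checked against markers, and in these bulk samples fewer expressing cells and less RNA per cell cannot be told apart. SSC values at 0 are as listed, and the depth behind a single transcript is unknown.

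Germline stem cells renew themselves and give rise to germ cells. SSCs maintain sperm production in the testis, and FGSCs are cells isolated from the ovary with properties of stem cells. LncRNAs are transcripts without a recognised reading frame, often made at low level and in few cell types. Those between genes can start at promoters of their own, beside the start of a coding gene, or within repeats such as the long terminal repeats of endogenous retroviruses, some of which are active in oocytes.

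Sequences of 5 loci are shown because they are among the highest of the short loci, up to 300 bases in length, or the highest of the longer ones, and because 3 of them carry stretches that recur among the 420. They were read from the RefSeq copy of the mm10 genome (GRCm38.p6) along the strand of the transcript, and for loci over 300 bases the first 300 are given. TCONS_00030826 lies at chr11:112430486-112430718 on the minus strand, TCONS_00130488 at chr6:137715885-137716088 on the minus strand, and TCONS_00096729 at chr3:38569147-38569386 on the minus strand. The stretch of TCONS_00123631 lies at chr6:49971422-49971721 on the plus strand, and that of TCONS_00135666 at chr7:114969067-114969366 on the plus strand. Capitals mark recurring stretches described further on.
TCONS_00030826: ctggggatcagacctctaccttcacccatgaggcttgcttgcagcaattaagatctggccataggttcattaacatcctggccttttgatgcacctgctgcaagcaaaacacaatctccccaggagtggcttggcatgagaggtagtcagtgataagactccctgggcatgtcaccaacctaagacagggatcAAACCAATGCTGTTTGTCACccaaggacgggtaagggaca
TCONS_00130488: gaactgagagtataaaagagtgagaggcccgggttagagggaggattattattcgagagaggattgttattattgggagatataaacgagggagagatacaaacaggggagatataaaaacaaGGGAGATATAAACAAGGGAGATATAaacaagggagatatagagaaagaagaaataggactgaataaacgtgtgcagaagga
TCONS_00096729: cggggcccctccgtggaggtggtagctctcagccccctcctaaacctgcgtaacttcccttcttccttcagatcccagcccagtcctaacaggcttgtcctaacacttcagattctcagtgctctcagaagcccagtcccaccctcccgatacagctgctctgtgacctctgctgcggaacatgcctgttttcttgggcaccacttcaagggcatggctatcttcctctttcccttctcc
TCONS_00123631: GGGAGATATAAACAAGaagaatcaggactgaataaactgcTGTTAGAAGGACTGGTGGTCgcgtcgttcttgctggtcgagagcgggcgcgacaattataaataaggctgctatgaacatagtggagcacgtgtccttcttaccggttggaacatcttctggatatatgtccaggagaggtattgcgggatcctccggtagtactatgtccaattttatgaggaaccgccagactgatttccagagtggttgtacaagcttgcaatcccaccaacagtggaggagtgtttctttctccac
TCONS_00135666: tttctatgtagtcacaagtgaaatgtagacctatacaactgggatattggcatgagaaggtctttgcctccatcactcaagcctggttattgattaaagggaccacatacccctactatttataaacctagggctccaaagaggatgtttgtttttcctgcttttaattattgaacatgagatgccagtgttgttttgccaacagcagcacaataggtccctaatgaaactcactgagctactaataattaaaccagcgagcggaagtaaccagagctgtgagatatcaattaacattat

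In TCONS_00030826 the capitals mark stretch 7, which recurred in 7 of the 420 loci. In TCONS_00130488 they mark the first copies of the 16-base run GGGAGATATAAACAAG and of stretch 2, which overlap. A further copy of each begins within these capitals and runs on in lower case. In TCONS_00123631 the capitals mark the same run at the very start of the locus and stretch 1 from base 41. All bases of TCONS_00030826, TCONS_00130488 and the printed part of TCONS_00123631 are repeats in the mask of the genome, against 45 of 240 bases in TCONS_00096729 and 20 of 300 in the printed part of TCONS_00135666. TCONS_00096729 belongs to the largest group along a chromosome, and TCONS_00135666 opens the next largest.

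The levels of the 420 loci were low. The median was 1.41 FPKM in FGSCs (quartiles 1.16 and 2.03, range 1.002 to 4.94), and 229 loci lay under 1.5 FPKM while 13 lay at 4 FPKM or above. In SSCs 298 loci (71.0%) were listed at 0, against 18.8% of all short intergenic loci. The other 122 had a median of 0.0472 FPKM in SSCs and at most 0.0994 FPKM. On the log2(FPKM + 0.5) scale, FGSC minus SSC, the 420 loci differed by a median of 1.90 (range 1.36 to 3.44), so that the rule placed every member beyond a difference of 1, which 17.9% of all short intergenic loci and 20.1% of all transcripts passed with FGSC higher. Among the loci confined to SSCs, 297 (62.3%) were listed at 0 in FGSCs.

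The highest locus was TCONS_00030826, 233 bp long, with 4.94 FPKM in FGSCs and 0 in SSCs. Its nearest coding gene was Sox9, a transcription factor of testis determination, 351.5 kb away. TCONS_00123631 followed with 4.93 FPKM in FGSCs and 0 in SSCs, 136.4 kb before the start of Mpp6, a membrane scaffold gene. TCONS_00130488, at 204 bp the shortest of the 420, had 4.70 FPKM in FGSCs, against 0 in SSCs. The next levels in FGSCs were 4.62 FPKM for TCONS_00135666 on chromosome 7, 4.57 FPKM for TCONS_00046028 on chromosome 14 and 4.54 FPKM for TCONS_00060733 on chromosome 17, each with 0 in SSCs. These 6 thus lay on 5 chromosomes, each over 10 kb from any coding gene.

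Values next to the limits of the rule ran on without a gap. Just inside the lower limit in FGSCs were TCONS_00147111 with 1.002 FPKM and TCONS_00093437 with 1.002 FPKM, and just outside were TCONS_00107123 with 0.994 FPKM and TCONS_00058331 with 0.992 FPKM. Below the upper limit were TCONS_00030826 with 4.94 FPKM and TCONS_00123631 with 4.93 FPKM in FGSCs, and above it TCONS_00059873 had 5.06 FPKM and TCONS_00020564 had 5.34 FPKM in FGSCs. At the limit in SSCs, TCONS_00080625 and TCONS_00144474 were inside with 0.0994 FPKM each in SSCs, and TCONS_00082118 with 0.1004 FPKM and TCONS_00158821 with 0.102 FPKM were outside. By span, TCONS_00096146 (20846 bp) and TCONS_00107590 (21400 bp) fell just outside, and TCONS_00054188 (19900 bp) and TCONS_00015516 (19524 bp) just inside.

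Short spans were frequent among the FGSC-confined loci, and so, to a smaller degree, were long ones. Span is the length of the locus with any introns, since exons are not in the table. The median span was 784.5 bp in the 420 loci, against 444 bp in the loci confined to SSCs and 916 bp in the other short intergenic loci. Loci of up to 300 bp made up 10% of the 420, 14.5% of the SSC-confined and 2.90% of all short intergenic loci. At 301 to 500 bp the shares were 24.3%, 42.3% and 11.1%. The excess of short loci was thus larger in the SSC-confined set. Loci of 501 to 1000 bp, the most frequent class overall with 41.8%, made up 23.6% of the 420. At the long end, 70 loci (16.7%) spanned 2001 to 5000 bp, against 11.7% of all short intergenic loci, and 27 (6.43%) spanned 5001 to 10000 bp, against 2.83%. The SSC-confined set had no such excess of long loci, with 4.40% at 2001 to 5000 bp.

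**Figure D1:**
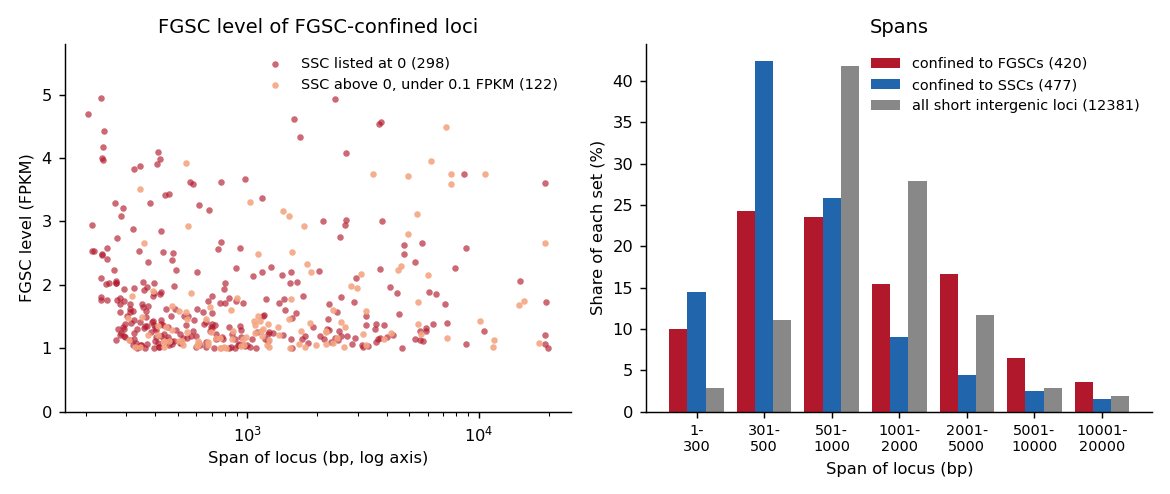
Left, the FGSC level (FPKM) of each of the 420 loci against its span (bp, log axis), dark where SSCs were listed at 0 (298 loci) and light where SSCs were above 0 (122 loci). Right, the share of each span class (%) in the FGSC-confined, the SSC-confined and all short intergenic loci. High levels occur at every span, and the FGSC-confined bars exceed the grey bars at both ends. Up to 500 bp the SSC-confined bars exceed both.

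Level and span were nearly unrelated within the set. Spearman's rho between span and FGSC level was -0.05 over the 420 loci, which share the same libraries. The median FGSC level was 2.03 FPKM in the 42 loci of up to 300 bp and between 1.26 and 1.73 FPKM in every longer class. Loci this short are about as long as the RNA fragments in the study's methods, and the reads behind their levels are unknown. After TCONS_00130488, the shortest loci were TCONS_00088942 on chromosome 2 (212 bp, 2.94 FPKM in FGSCs and 0 in SSCs) and TCONS_00079250 on chromosome 2 (213 bp, 2.53 FPKM in FGSCs and 0 in SSCs). The longest, TCONS_00054188 on chromosome 15 (19900 bp), stood at 1.01 FPKM in FGSCs, and TCONS_00015516 on chromosome 10 (19524 bp) at 1.73 FPKM, both with 0 in SSCs. TCONS_00017947 (19339 bp, 1.07 FPKM in FGSCs and 0 in SSCs) is 1 of 3 rows with the same locus. Of the 420 rows, 400 had a locus of their own, and the others share theirs with 1 or 2 more rows. Loci with SSCs listed at 0 were shorter (median 668.5 bp) than those with SSCs above 0 (median 1161.5 bp).

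The loci were spread over all 19 autosomes, with 220 on the plus and 200 on the minus strand. Chromosome 3 held most, 38, followed by chromosomes 8 and 14 with 34 each, and chromosome 18 held fewest, 9. As a share of the short intergenic loci of each chromosome, chromosome 14 was highest with 6.61%, then chromosome 8 with 5.39% and chromosome 3 with 5.09%, against 3.39% over all autosomes. Chromosome 1 was lowest with 1.54%. The chromosomes stood closer together when loci were counted as separate places, where loci within 50 kb of each other are 1 place. Chromosome 14 had 19 places (3.70%), chromosome 8 had 21 (3.33%) and chromosome 3 had 20 (2.68%). These percentages set places against short intergenic loci that were not joined into places, so they are not on the scale of the shares by loci. The SSC-confined loci were also frequent on chromosome 8 (6.34%), but on chromosome 11 they made up 5.95%, against 2.61% for FGSC-confined loci, and on chromosome 14 they made up 3.31%.

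**Figure D2:**
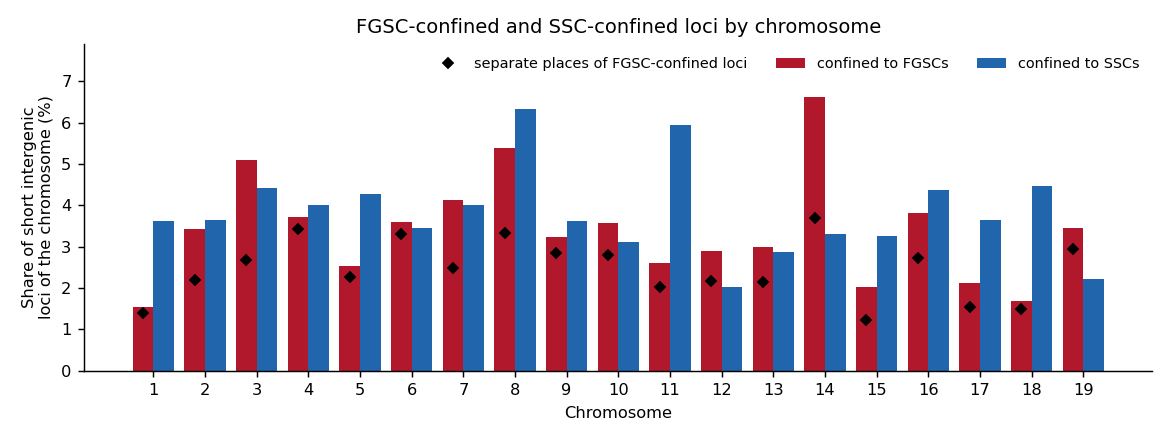
Share (%) of the short intergenic loci of each autosome that were FGSC-confined (left bars) or SSC-confined (right bars). Diamonds set the separate places of FGSC-confined loci against the same short intergenic loci, which were not joined into places. Chromosome 14 stands highest at 6.61% by loci, and its diamond stands at 3.70%.

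The loci often lay close together along chromosomes. Of the 420 loci, 99 (23.6%) lay within 1 kb of another member, against 32 (6.71%) of the SSC-confined loci within 1 kb of their own kind. The nearest short intergenic locus was itself a member for 27.1% of members and for 2.65% of the other short intergenic loci, while for 15.9% of the SSC-confined loci it was itself SSC-confined. With a gap of at most 50 kb, the 420 formed 305 places, of which 245 held 1 locus, 39 held a pair and 21 held groups of 3 or more with 97 loci (23.1%). The 477 SSC-confined loci formed 388 places and 15 groups with 72 loci (15.1%), the largest with 21 loci against 13 in the FGSC-confined set. All loci of a group lay on the same strand in 14 of the 21 groups. Of the 76 pairs of neighbouring members within groups, 3 share the same locus, and the other 73 were 55 to 34376 bp apart (median 874 bp). Both strands were used at 2 such shared loci, 1 with TCONS_00014400 on the plus strand and TCONS_00017944 and TCONS_00017947 on the minus strand, and 1 with TCONS_00060728 on the plus and TCONS_00064416 on the minus strand. Leaving out the 2 gaps beside them, 66 of 71 gaps (93.0%) had the same strand on both sides. Of the 97 grouped loci, 90 were listed at 0 in SSCs. Grouped loci had a median of 1.66 FPKM in FGSCs, against 1.34 FPKM in loci that stood alone.

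The largest group, at chr3:38531124-38590268, held 13 loci in 59.1 kb, 12 on the minus strand and 1 on the plus strand, and 12 were listed at 0 in SSCs. It lies 46.3 kb from Ankrd50, an ankyrin repeat gene of endosomal transport. Its highest loci in FGSCs were TCONS_00096729 with 4.42 FPKM, TCONS_00096719 with 4.17 FPKM and TCONS_00096732 with 3.75 FPKM, and in SSCs they stood at 0, 0 and 0.00424 FPKM. The longest of its loci, TCONS_00096730 (5702 bp), had 2.66 FPKM in FGSCs, against 0 in SSCs. Listed levels on the minus strand differed between loci only 80 bp apart, with 4.17 FPKM in TCONS_00096719 and 1.05 FPKM in TCONS_00096718 in FGSCs. These loci span 238 and 953 bp. The range of RNA fragment lengths in the study's methods includes the span of the shorter one, and the reads behind its level are unknown. Whether transcription differs between them was not tested.

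The group at chr7:114969067-115040635 held 9 loci on the plus strand. The first 3, TCONS_00135666 with 4.62 FPKM, TCONS_00135667 with 3.59 FPKM and TCONS_00135668 with 4.33 FPKM in FGSCs, overlap A730082K24Rik, an annotated lncRNA gene, on its strand, and all stood at 0 in SSCs. Then TCONS_00135671 (7590 bp) had 3.75 FPKM in FGSCs, against 0.00383 FPKM in SSCs, and TCONS_00135672, TCONS_00135673 and TCONS_00135675 had 3.02, 3.41 and 3.01 FPKM in FGSCs, against 0 in SSCs. Beyond a gap of 34376 bp, TCONS_00135677 with 1.52 FPKM and TCONS_00135678 with 1.12 FPKM in FGSCs overlap Gm34225 and again stood at 0 in SSCs. The 7 loci before the gap all lay at or above 3.01 FPKM in FGSCs and both loci after it at or under 1.52 FPKM.

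The group at chr14:95504955-95519206 held 8 loci on the plus strand, all listed at 0 in SSCs and overlapping no annotated gene. Its level in FGSCs was highest at the 5′ side, with 4.57 FPKM in TCONS_00046028 and 3.68 FPKM in TCONS_00046029. The next 6 loci had 1.79, 1.49, 2.06, 1.01, 1.01 and 1.21 FPKM in FGSCs, in the order of transcription, the third of these being TCONS_00046033. The group at chr8:89895563-89913213 held 7 loci on the minus strand, also all at 0 in SSCs, 333.8 kb beyond the end of Tox3, a gene of an HMG-box protein. There TCONS_00149681, the most 5′ of the 7, was highest with 2.68 FPKM in FGSCs, TCONS_00149669 had 1.95 FPKM and TCONS_00149677 had 1.52 FPKM. In both groups the first locus in the order of transcription thus had the highest level, as in the group on chromosome 7. This did not hold for every group. On chromosome 3 the most 5′ locus of the minus strand, TCONS_00096732, had 3.75 FPKM in FGSCs, against 4.42 FPKM in TCONS_00096729. In the group before Vwa8, described next, the first locus had 1.94 FPKM in FGSCs, against 3.91 FPKM in the highest.

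**Figure D3:**
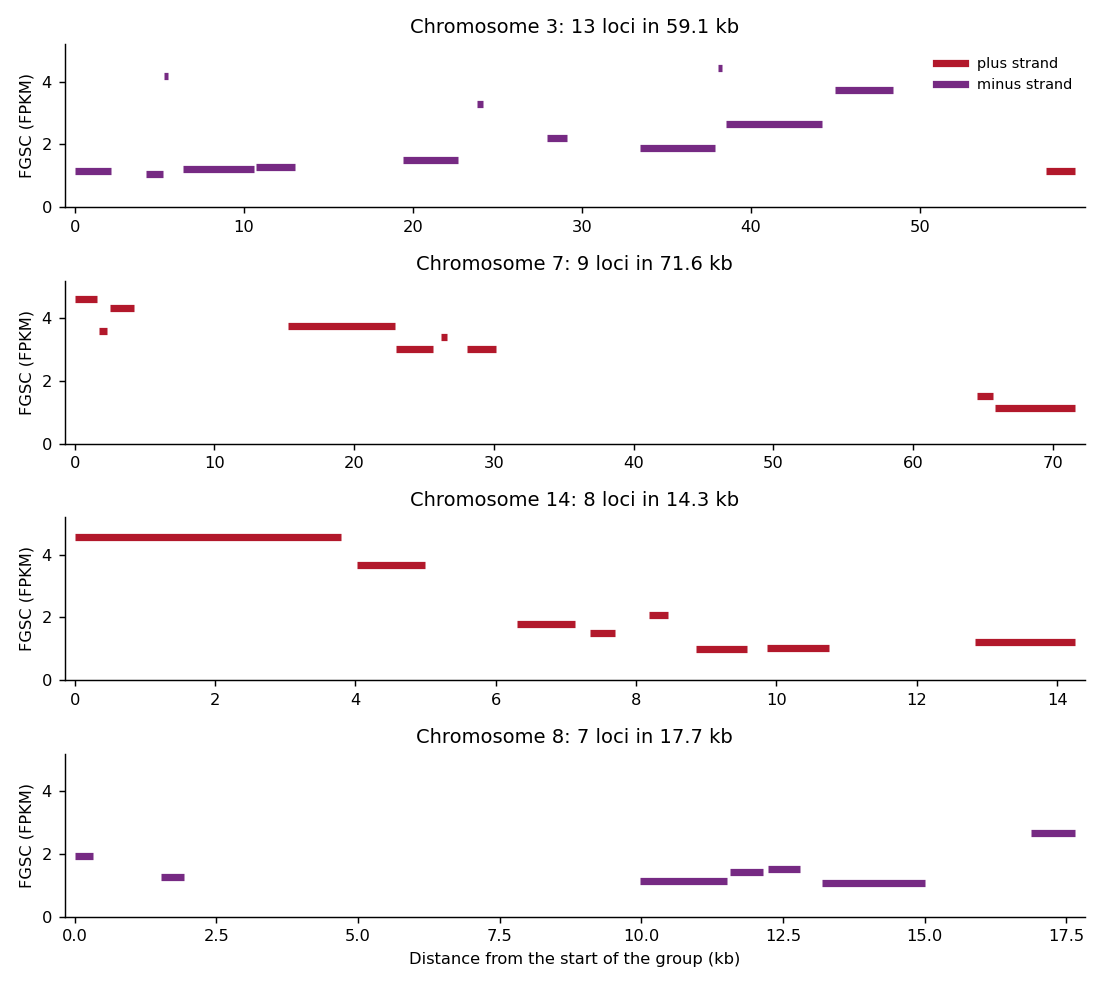
FGSC level (FPKM) of each locus in the groups on chromosomes 3, 7, 14 and 8 against the distance from the left end of the group (kb), with the bar drawn over the span of the locus and coloured by strand. Of the 37 loci drawn, 36 lie on the main strand of their group. The groups on chromosomes 7, 14 and 8 are highest at the 5′ end, left on the plus strand and right on the minus strand. The group on chromosome 3 is not.

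The other 17 groups held 60 loci in stretches of 3106 to 44270 bp. On chromosome 14, 5 loci on the plus strand at chr14:78825542-78846983 led up to the start of Vwa8, an ATPase gene on the same strand, the last of them, TCONS_00045942 (1.05 FPKM in FGSCs), 2.07 kb before it. The highest of the 5, TCONS_00045929, had 3.91 FPKM in FGSCs, and all were listed at 0 in SSCs. On chromosome 3, 5 loci on the plus strand at chr3:96313693-96319353, from TCONS_00094450 to TCONS_00094454, had 1.69, 3.88, 2.85, 1.14 and 2.29 FPKM in FGSCs, against 0 in SSCs. They follow TCONS_00094449, a locus kept out by its level of 6.38 FPKM in FGSCs (0.00478 FPKM in SSCs), which holds stretch 2. The 1 other transcript within the extent of these 5 loci went the other way, with 0.197 FPKM in FGSCs and 2.32 FPKM in SSCs. A smaller group of 3 on chromosome 13, TCONS_00039652, TCONS_00039654 and TCONS_00039656, with 1.72, 1.14 and 1.25 FPKM in FGSCs and 0 in SSCs, lay on the strand of Ankrd31, a gene of meiotic recombination, and ended 8.51 kb before its start.

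Short gaps within groups were masked as repeats to about the extent of short members in general, and more than the short loci of the groups themselves. In the 37 gaps of at most 1000 bp, the median share of masked bases was 38.8%, and 17 (45.9%) were masked over more than 50% of their bases. In the 243 members of up to 1000 bp the median was 36.1%, and 97 (39.9%) were masked over more than 50%. In the 51 grouped loci of up to 1000 bp the median was 29.9%, and 10 (19.6%) were. Whether loci of a group are parts of longer transcripts was not tested, since neither reads nor exons were used here.

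Other lncRNAs close to the 420 loci also tended to be higher in FGSCs. Within 50 kb lay 1227 transcripts that were no members, and 1092 of them (89.0%) had a higher FPKM in FGSCs than in SSCs, against 63.2% of all transcripts that were no members and 64% of all transcripts. Within 1 kb the share was 96.0% of 325 transcripts. The difference passed 1 on the log2(FPKM + 0.5) scale, FGSC higher, in 47.5% of transcripts within 50 kb and in 70.8% of those within 1 kb, against 18.2% of all that were no members. Transcripts within 50 kb had a median of 0.586 FPKM in FGSCs and 0 in SSCs. On the strand of the nearest member 92.5% of 871 transcripts were higher in FGSCs, and on the other strand, or of unknown strand, 80.3% of 356 were. Several transcripts can belong to 1 gene, and with the transcripts of a gene summed, 1012 of 1132 genes (89.4%) were higher in FGSCs, against 62.6% of the genes without a member. Among the 339 neighbours with at least 0.1 FPKM in SSCs, 61.1% were higher in FGSCs, against 44.9% of all 11945 such transcripts that were no members. Around the SSC-confined loci, 32.0% of 1135 transcripts within 50 kb were higher in FGSCs. Neighbours and members come from the same libraries and the same comparison, so these shares are a description.

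**Figure D4:**
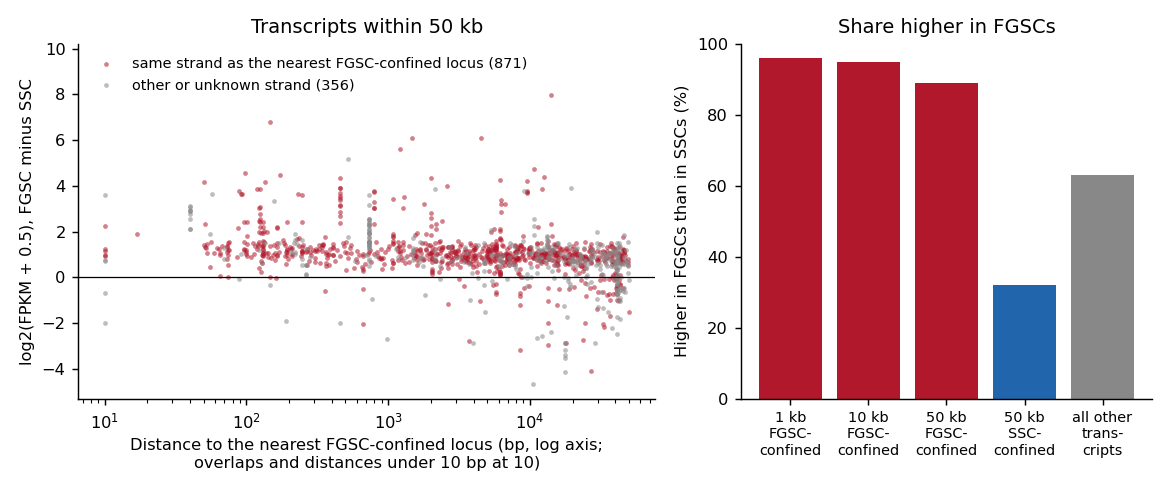
Left, log2(FPKM + 0.5), FGSC minus SSC, of the 1227 transcripts within 50 kb of an FGSC-confined locus against distance (bp, log axis), coloured by whether the strand is that of the locus. Right, the share of transcripts (%) higher in FGSCs by distance from FGSC-confined loci, around SSC-confined loci and over all transcripts that were no members, which reads 96.0% within 1 kb, 89.0% within 50 kb, 32.0% and 63.2%.

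The 420 loci lay far from coding genes. In the GENCODE M21 annotation 357 of them (85.0%) overlapped no gene, 46 (11.0%) overlapped an annotated lncRNA gene, 13 (3.10%) a protein-coding gene and 7 a pseudogene, against 82.6%, 8.31% and 8.56% of the other short intergenic loci with no gene, a lncRNA gene and a protein-coding gene, so that the intergenic class, which the assembly gave, did not hold for all of them in this annotation. The median distance to the nearest protein-coding gene was 33.2 kb, against 13.2 kb for the SSC-confined loci and 6.04 kb for the other short intergenic loci. Over 100 kb from any coding gene lay 149 loci (35.5%), against 12.8% of the other short intergenic loci. Each locus counts singly in these shares, and distances were not counted by place. The groups of 9, 8 and 7 loci on chromosomes 7, 14 and 8 lie wholly beyond 100 kb. Within 10 kb of a coding gene without overlap lay 125 (29.8%), against 51.7%. The shortfall was largest for the side after the end of a gene on its strand, where 12 loci (2.86%) lay, against 16.4%. Before the start of a gene on the opposite strand lay 60 loci (14.3%), against 22.4%, and before the start on the same strand 20 (4.76%), against 6.28%. After the end of a gene on the opposite strand there was no shortfall, with 33 loci (7.86%), against 6.37%.

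Among the loci over annotated genes, the 6 highest include the 3 over A730082K24Rik and TCONS_00060733 on chromosome 17 over AC105297.2, all over lncRNA genes on their own strand. TCONS_00038338 on chromosome 13, over 2010001K21Rik and the pseudogene Gm5790, stood at 3.72 FPKM in FGSCs against 0.0286 FPKM in SSCs, and TCONS_00115764 on chromosome 5, over Gm42980, at 3.09 FPKM in FGSCs against 0.0566 FPKM in SSCs. Of the loci within 10 kb of a coding gene and over none, the highest was TCONS_00091023 (323 bp, masked throughout), with 3.83 FPKM in FGSCs and 0 in SSCs, 2.88 kb after the end of Ccn5, a secreted matrix protein gene, on the opposite strand. TCONS_00038338 lay 2.73 kb from Nhlrc1, which encodes a ubiquitin ligase. TCONS_00156595 on chromosome 9 had 3.52 FPKM in FGSCs, against 0.0780 FPKM in SSCs, and lay 2.08 kb from Pih1d2. TCONS_00040976 had 3.44 FPKM in FGSCs, against 0 in SSCs, 9.68 kb before the start of Tubb2b, a beta-tubulin gene. TCONS_00087741 had 3.18 FPKM in FGSCs, against 0 in SSCs, 3.19 kb after the end of the olfactory receptor gene Olfr1122, and TCONS_00088942 lay 7.67 kb before the start of Pla2g4e, a phospholipase gene. Of these 6 loci, 4 lay after the end of their gene on the opposite strand, and those near Tubb2b and Pla2g4e lay before the start on the same strand.

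Genes of the germline and the gonad were rarely neighbours. Of 161 genes matched from 9 lists (oogonia and oocytes, meiotic prophase, SSCs, general germ cells, granulosa cells, theca and stroma, Sertoli cells, blood and endothelium, imprinted genes), 3 had a member within 100 kb, with 4 members in all. These are 1.27% of the 314 short intergenic loci that lay as near, against 3.39% over all short intergenic loci. Of the SSC-confined loci 25 lay as near (7.96%, against 3.85% over all short intergenic loci). For members, 1.27% and 3.39% cover unlike sets, since 35.5% of members lay over 100 kb from any coding gene. Of all short intergenic loci 13.6% did. Whether the lower share is particular to the listed genes was not tested, and it rests on 4 members. Nobox, an oocyte homeobox transcription factor needed for follicle growth, had TCONS_00123404 at 4862 bp and TCONS_00123403 at 4016 bp before its start, both on the opposite strand. TCONS_00123404 (chr6:43314417-43314787) had 2.36 FPKM in FGSCs, against 0 in SSCs, and TCONS_00123403 (chr6:43313571-43314267) had 1.25 FPKM in FGSCs, against 0.0413 FPKM in SSCs. Msh4, a meiotic crossover gene, had TCONS_00095917 at 7108 bp, with 1.73 FPKM in FGSCs and 0 in SSCs, although this locus begins 237 bp before Rabggtb, a prenylation enzyme gene, on the opposite strand. Amh, the anti-Müllerian hormone gene of granulosa and Sertoli cells, had TCONS_00017117 at 42439 bp, with 1.06 FPKM in FGSCs and 0 in SSCs. The coding gene nearest to this locus was Lsm7, which ends 2.385 kb before it on the same strand. The lists of SSCs, general germ cells, theca and stroma, Sertoli cells, blood and endothelium, and imprinted genes had no member within 100 kb. In this order, 31, 55, 13, 25, 14 and 29 short intergenic loci lay that near, of which 5, 5, 2, 2, 2 and 6 were SSC-confined. At the share of 3.39% few members would fall among so few loci, so a list without a member is no result by itself.

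In base composition the 420 loci were slightly poorer in GC and richer in repeats than most. The median GC content was 43.0%, against 45.3% in the SSC-confined loci and 44.6% in the other short intergenic loci. Masked repeats covered a median of 29.4% of a locus, against 37.8% in the SSC-confined and 20.9% in the other loci, and over 50% of the locus in 111 members (26.4%), against 34.6% and 12.9%. Within span classes the difference from the other loci was kept in the short and middle classes. Up to 500 bp, 43.1% of 144 members were masked over more than 50% of their bases, against 36.2% of the other loci, and at 501 to 2000 bp 26.2% of 164 were, against 10.3%. Above 2000 bp it was 5.36% of 112 members and 5.28% of the other loci.

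Some sequences recurred in loci far apart. Stretches of 20 bases on the strand of the transcript were searched for, each with a share in members at least 15 times that in the short intergenic loci of neither confined set. The 8 found were picked because members hold them, and because few loci of neither set do, so these counts only describe the pick, whereas the SSC-confined loci and the levels of other loci were not used in it. They were taken in turn, each for the loci that no earlier stretch had covered.
stretch 1: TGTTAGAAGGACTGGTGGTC
stretch 2: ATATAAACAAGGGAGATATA
stretch 3: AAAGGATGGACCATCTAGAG
stretch 4: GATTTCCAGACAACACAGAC
stretch 5: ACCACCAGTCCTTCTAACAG
stretch 6: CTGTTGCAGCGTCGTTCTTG
stretch 7: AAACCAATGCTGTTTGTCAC
stretch 8: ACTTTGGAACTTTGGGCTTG

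Stretches 1, 2 and 7, which the printed sequences hold, were the ones in most members. Stretch 1 was in 37 members (8.81%) at 37 separate places on 15 chromosomes, in 36 of 11941 other short intergenic loci of known strand (0.301%) and in 0 of the 477 SSC-confined loci. At a share of 0.301% few of 477 loci would hold it, so the 0 does not set the SSC-confined loci apart from the other loci. On the opposite strand stretch 1 was in 5 members. It lay a median of 177 bases from the 5′ end, and in 33 of the 37 within the first 500 bases, although the locus spanned a median of 1169 bp. All 37 copies were in masked repeats, and the autosomes held 1241 copies in all on either strand. Among 32851 RefSeq promoter windows of 300 bases, 3 held it on either strand. In equal windows from 500 bases before to 1000 bases after the 5′ end, 41 members (9.76%) and 45 other loci (0.377%) held it. Stretch 5 is stretch 1 read on the other strand, shifted by 1 base. Members that share a locus on opposite strands can thus count for both stretches at the same copy, as TCONS_00060728 and TCONS_00064416 do.

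The loci with stretch 1 outside the rule had the same direction. All 36 had a higher FPKM in FGSCs than in SSCs, against 61.8% of the 11961 short intergenic loci that were no members and 63.1% of all short intergenic loci. Of the 36, 28 were listed at 0 in SSCs, and their median was 0.674 FPKM in FGSCs (range 0.297 to 55.6) and 0 in SSCs (at most 0.30). They were no members mainly because of their level, as 30 lay under 1 FPKM and 6 at or above 5 FPKM in FGSCs. The highest, TCONS_00060729 on chromosome 17 (332 bp), had 55.6 FPKM in FGSCs, against 0 in SSCs, and lies within the group of members that holds TCONS_00060733. The 37 members with stretch 1 had a median of 1.75 FPKM in FGSCs (1.01 to 4.93), and 31 were listed at 0 in SSCs. After TCONS_00123631, the highest were TCONS_00096148 on chromosome 3 with 4.10 FPKM and TCONS_00100014 on chromosome 4 with 3.98 FPKM in FGSCs, both with 0 in SSCs.

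Stretch 2 was in 23 members (5.48%) at 23 separate places, 8 of which also held stretch 1, in 39 other loci (0.327%) and in 0 SSC-confined loci. With so low a share in the other loci, the 0 again does not set the SSC-confined loci apart. All 39 other loci were higher in FGSCs, with a median of 0.657 FPKM in FGSCs and 0 in SSCs. In 21 of the 23 members it lay within the first 500 bases. The 16-base run GGGAGATATAAACAAG overlaps stretch 2 in TCONS_00130488. It was picked as the longest run shared by the printed parts of TCONS_00130488 and TCONS_00123631, so its count in members describes the pick. The run was in 37 members and in 58 other loci (0.486%), all 58 higher in FGSCs, and in 0 SSC-confined loci. Its loci were not separated from those of stretch 2. Among the 23 members with stretch 2 were TCONS_00130488, TCONS_00091023 beside Ccn5 and TCONS_00020712 on chromosome 11, with 4.70, 3.83 and 3.62 FPKM in FGSCs and 0 in SSCs. The autosomes held 2507 copies and the promoter windows 3.

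Stretch 7 was in 7 members on 7 chromosomes, all listed at 0 in SSCs and with a median of 1.37 FPKM in FGSCs. TCONS_00030826 was the highest of them and TCONS_00144922 on chromosome 8 the next with 2.54 FPKM in FGSCs. The stretch was in 6 other loci, all 6 higher in FGSCs, and in 0 of 32851 promoter windows. Stretch 3 was in 6 members and in 8 other loci, 2 of them SSC-confined, and 5 of the 8 were higher in FGSCs, near the 61.8% of all loci that were no members. Stretch 4 was in 5 members and 3 other loci, of which 2 were higher in FGSCs and 1 was SSC-confined. Of the other loci with stretches 5, 6 and 8, 3 of 3, 4 of 5 and 3 of 3 were higher in FGSCs. Stretches 5, 6 and 8 were in 4 or 5 members each, and each of the 8 was in 0 to 3 promoter windows. Together the 8 stretches were in 82 members (19.5%) at 77 separate places, and 60 of these members stood alone along the chromosome. They were also in 92 other loci (0.770%), of which 87 (94.6%) were higher in FGSCs. The SSC-confined loci held any of them in 3 of 477 cases, a share near the 0.770% of all other loci. The mask names no repeat family, so none is given here, and how reads from like copies were placed was not tested.

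**Figure D5:**
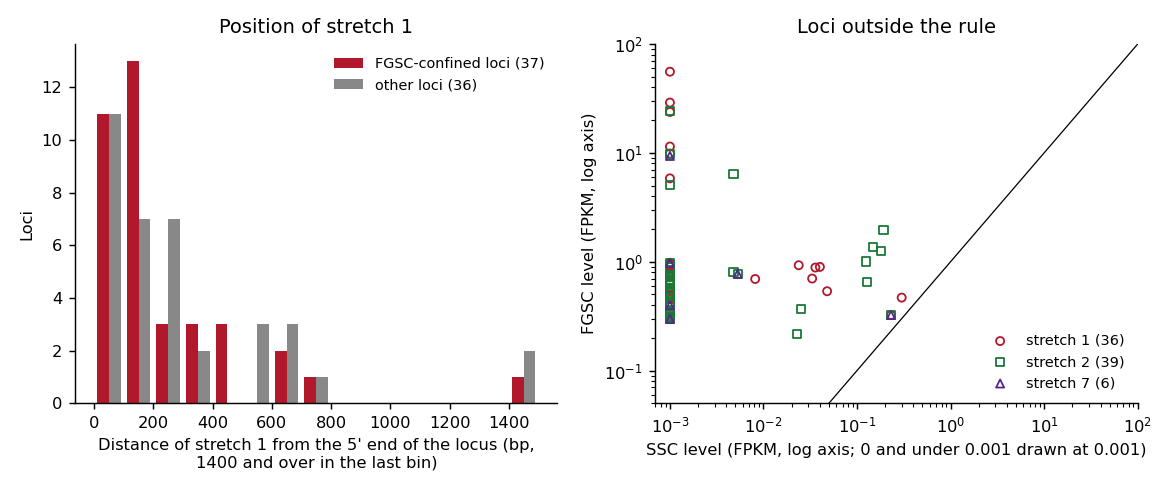
Left, distance of stretch 1 from the 5′ end (bp) in the 37 FGSC-confined and the 36 other loci that hold it, most of them within 500 bases. Right, FGSC level against SSC level (FPKM, log axes) of the loci outside the rule that hold stretch 1 (36), stretch 2 (39) or stretch 7 (6), with SSC values of 0 drawn at 0.001 and a line of equal levels, above which all points lie.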

How the data were processed

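Strand-specific, rRNA-depleted total RNA of 3 FGSC and 3 SSC libraries was sequenced. The authors aligned reads to mm10, assembled transcripts and filtered them by length, coverage and coding potential, and the submitters' notes name TopHat2, Cufflinks and Cuffdiff 2.1.1. The deposited FPKM values are the authors' Cuffdiff estimates, 1 per transcript and cell type over the 3 libraries. The table also holds the authors' own comparison (log2 fold changes, a test statistic, p-values, q-values and status), which was not used. Members were taken by the rule in the text. Differences are log2(FPKM + 0.5), FGSC minus SSC, and groups join loci at most 50 kb apart. With 1 value per group no test was run, as the design provided for this case.

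Starts were raised by 1 to be 1-based, as 742 locus starts plus 1 and 11 starts unchanged matched annotated gene starts. The table gives no strand. It was read from the order of the transcript numbers, which matched the annotated strand in 2435 of 2436 transcripts with an annotated gene, and 20 short intergenic loci were left without a strand. Genes are those of GENCODE M21, and sequence, mask and promoters are those of RefSeq on the same assembly. Similar places were sought with BLAST 2.17.0 at 90% identity over 80% of the length. The steps were tested on simulated data. Named loci are the 6 highest in FGSCs, up to 3 of each of the 4 largest groups, the 3 shortest and longest, the 6 highest over a gene and the 6 highest within 10 kb of a coding gene, those within 100 kb of list genes, and those next to each limit of the rule. Other loci of the groups and loci with recurring stretches were named after their values were seen. Members and lists were chosen with earlier results of these data known, and the stretches after the sequences had been seen. Alternatives in limits, pseudocount, distance and scaling were tried. The software was pandas 2.3.3, pysam 0.24.0, matplotlib 3.10.9, SciPy 1.17.1 and NumPy 2.4.6 under Python 3.11.15. The sequence of 1 of the 4 highest short loci is not reported here. Known lncRNAs, mRNAs, circRNAs and single libraries were not analysed here.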

Additional observations from a re-analysis of the deposited data

How the results depend on the processing

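Of 36 alternatives, 26 left their result within 1.5 times a count or within the 95% binomial interval of a median or share. The other 10 moved it further, and turns of direction were not scored. The limit in FGSCs mattered most. There were 111 members at a limit of 2 FPKM and 2102 at 0.5 FPKM, against 420, and the limit of 2 FPKM left 6 groups with 25 loci, against 21 groups with 97. The median span was 668.5 bp with SSCs listed at 0 and 693 bp for spans under 5000 bp. The median log2 difference was 1.25 with a pseudocount of 1 and 3.83 with 0.1, and 1194 transcripts passed the fold with FGSC higher at a pseudocount of 1, against 3728. Among neighbours within 10 kb, 94.8% were higher in FGSCs. Scaling SSC values by 1.28, so that transcripts above 0 in both had equal medians, moved the median difference over all transcripts by -0.11 and left 388 members, a share of 87.5% of neighbours higher in FGSCs and all 36, 39 and 6 other loci with stretches 1, 2 and 7 higher in FGSCs. That scaling of stretches, the sums per gene, and 18 groups with 86 loci when only loci with a row of their own were taken, were chosen after seeing the data. No paired analysis was possible because the table holds 1 value per cell type, and for the same reason no library could be left out. Depth per transcript is unknown, so that a value listed at 0 sets no upper limit, and the number of reads behind a level near 1 FPKM in the shortest loci is not known.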

Other observations

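Few members had near copies elsewhere. Such an alignment, at 90% identity over 80% of the length, was found for 358 loci, and 17 of these had more than 1 place. TCONS_00093201 on chromosome 3 had 15 places, with 1.05 FPKM in FGSCs and 0.0971 FPKM in SSCs, and TCONS_00127678 on chromosome 6 had 8 places, with 3.97 FPKM in FGSCs and 0 in SSCs. The remaining loci, whose unmasked bases gave no such alignment, were not counted, and whether they have near copies is not known. In the SSC-confined set 20 of the 446 loci with such an alignment had more than 1 place. A ratio of observed to expected CpG above 0.6 over the locus was seen in 22 members (5.24%), against 2.31% of the SSC-confined and 2.67% of the other short intergenic loci.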
